A study of Rattus norvegicus with 36 samples.

Results

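Bronchoalveolar lavage rinses the air spaces of the lung and recovers the cells that lie free in them. RNA of lavage cells was set against RNA of blood taken from the same 6 rats, on 12 of the 36 Illumina rat BeadChip arrays of a study of silica inhalation. These 6 rats had breathed air with 0 mg/m3 of silica, by the labels for 6 h daily on 5 days. They were males of a strain labelled Fisher (CDF) 344 and were sampled 44 weeks after the exposure period. Their labelled age of about 3 months can therefore not be the age at sampling. The groups were therefore lavage cells of air rats (6 arrays) and blood of air rats (6 arrays), paired by the rat number in the labels. For 1 comparison near the end, the same 2 sample types came from 6 rats exposed to 15 mg/m3 of silica, 6 h daily on 5 days. Of 21792 probes on the array, 9221 had a detection p under 0.05 on all 6 arrays of at least 1 sample type and were tested. The comparison asks how the cells of the air space differ from circulating cells in rats that had inhaled no silica.

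In an unexposed lung most free cells of the air space are alveolar macrophages, long-lived phagocytes that take up inhaled particles and recycle surfactant lipid. Their identity depends on the cytokine GM-CSF and on the nuclear receptor PPAR-gamma, and they carry large lysosomal and lipid handling systems. Whole blood holds red cells and reticulocytes, platelets, lymphocytes, natural killer (NK) cells, neutrophils and monocytes, whose RNA is read together here.

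Lavage arrays were brighter and more alike than blood arrays. Between 9229 and 9773 probes were detected on a lavage array, against 7244 to 8500 on a blood array, and the 95th percentile of raw intensity was 2031 to 2901 in lavage cells against 514 to 875 in blood. The 100 brightest probes held 19.2 to 21.2% of the summed intensity of a lavage array and 30.8 to 35.0% of that of a blood array. Log2 levels correlated at 0.996 to 0.998 between lavage arrays, at 0.972 to 0.994 between blood arrays, and at 0.783 to 0.820 between the sample types. The brightest probe of an array read 33726 to 40594, and whether such probes were saturated is not given in the sources used here. Lavage RNA came from a column kit alone, whereas blood RNA came from a blood kit and was then depleted of globin transcripts, so sample type, extraction and depletion cannot be told apart.

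Across the genome the 2 sample types differed at most probes. After joint quantile normalization, 4628 probes (50.2%) were higher in lavage cells and 3286 (35.6%) lower, by limma at a Benjamini-Hochberg adjusted p under 0.05, together 85.8% of those tested. A difference of at least 2-fold in addition was found for 2456 probes higher (26.6%) and 1903 lower (20.6%). The median log2 difference, lavage cells minus blood, was 0.25 over all probes tested, with quartiles of -0.75 and 1.06. Among probes measured in both sample types, 81 were at least 16-fold higher in lavage cells and 200 at least 16-fold lower. Another 1186 probes were detected on all 6 lavage arrays and no blood array, and 407 on all 6 blood arrays and no lavage array. For such probes only a lower bound of the fold is given, set against the lowest detected signal of the dim arrays.

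The split between higher and lower calls rested on the scaling of the arrays. With quantile normalization 58.5% of the calls were higher in lavage cells. A shift of each array to the median of all probes gave 82.3% higher and moved the median of all probes tested to 1.34. A shift that instead levelled the probes detected on all 12 arrays gave 36.9% higher and a median of -0.45. Small differences are therefore relative to the scaling. Of the 30 gene lists described here, 29 had a median that moved by over 1.5 times or changed sign under at least 1 alternative, and 11 changed sign. A gene could pass the filter through 1 sample type alone, so counts and medians of a list describe the members that passed and are no test of the list. As a mixture of cells was read in each sample type, fewer cells of a type and less RNA per cell cannot be told apart anywhere in these data.

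**Figure D1:**
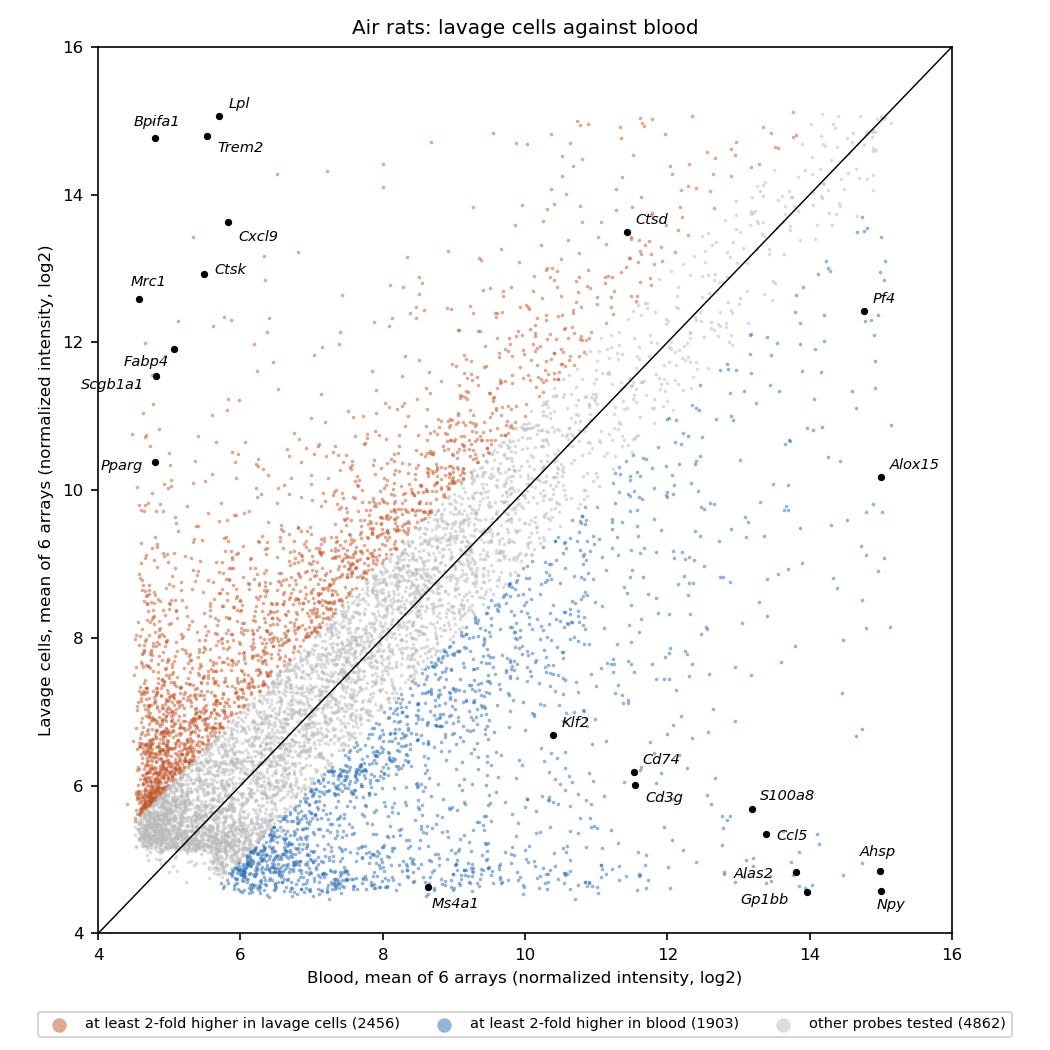
Mean log2 normalized intensity of 9221 probes in lavage cells (vertical axis) against blood (horizontal axis), 6 arrays each. The 2456 probes at least 2-fold higher in lavage cells lie above the diagonal and the 1903 at least 2-fold lower below it, with Lpl, Trem2, Bpifa1 and Mrc1 at one corner and Npy, Ahsp, Alas2 and Gp1bb at the other.

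Markers of resident alveolar macrophages are described first, which is no check of the sample label. Of 28 marker genes, 21 had a probe and 19 were tested. All 19 were detected on every lavage array and 7 of them on every blood array, so 12 were tested through lavage cells alone. Such a filter favours a high median in lavage cells. In lavage cells 17 of the 19 were higher and 2 lower, 16 of the 17 at least 2-fold. Shares over all probes tested were 50.2% higher and 35.6% lower. Their median log2 difference was 4.56, with 2.87 to 5.70 over the alternatives, against 0.25 over all probes. The summed raw intensity of the markers was 158372 to 201638 on lavage arrays and 1613 to 5052 on blood arrays. Marco, a scavenger receptor, and Csf2ra, the GM-CSF receptor chain, had no matched probe, as was also the case for Lyz2, Csf1r and Krt18. Car4, a carbonic anhydrase used as an alveolar macrophage marker in mice, was detected on 0 of 6 lavage arrays and 5 of 6 blood arrays and was not tested.

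Mrc1, the macrophage mannose receptor, read 7694, 8098 and 10818 on lavage arrays (lowest, median and highest raw intensity, in that order for every gene) and 56.1, 61.4 and 68.5 on blood arrays. Every lavage array was far above every blood array, and no blood array detected the gene. Its level was at least 152-fold higher in lavage cells. Mean log2 levels were 12.59 ± 0.09 in lavage cells and 4.57 ± 0.05 in blood (SD, n = 6 each). The blood value is background-level signal, so no p-value is given. Pparg, which encodes PPAR-gamma, read 2184, 2322 and 3179 in lavage cells and 63.4, 73.3 and 84.5 in blood. It too was detected on every lavage array and on no blood array, at least 32.9-fold higher. Fabp4, a fatty acid binding protein under PPAR-gamma control, read 4959, 5646 and 8625 in lavage cells and 74.1, 82.2 and 91.0 in blood. The groups were apart and the log2 difference was 6.84 (SE 0.16). As only 1 blood array detected Fabp4, this difference rests largely on background-level blood signal.

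The same list held members that went the other way. Itgax, the CD11c integrin chain carried by alveolar macrophages and dendritic cells, was lower in lavage cells by the test, with a log2 difference of -1.16 (SE 0.08, adjusted p = 3.77e-07, limma). Its raw intensity did not show that order, with 295, 353 and 453 in lavage cells and 202, 267 and 313 in blood. The raw groups overlapped, and when arrays were only shifted to a common median the difference was 0.60 (adjusted p = 0.000485, limma). Siglec5, a sialic acid binding lectin, was lower in lavage cells at -1.08 (SE 0.26). Of the 147 genes named by rule and called in this comparison, 63 were higher and 84 lower in lavage cells. No raw overlap of the groups was present among the 63, and 7 of the 84 overlapped, namely Itgax, Cldn5, Napsa, Ccr3, Cd24, Psmd9 and Mrpl37.

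**Figure D2:**
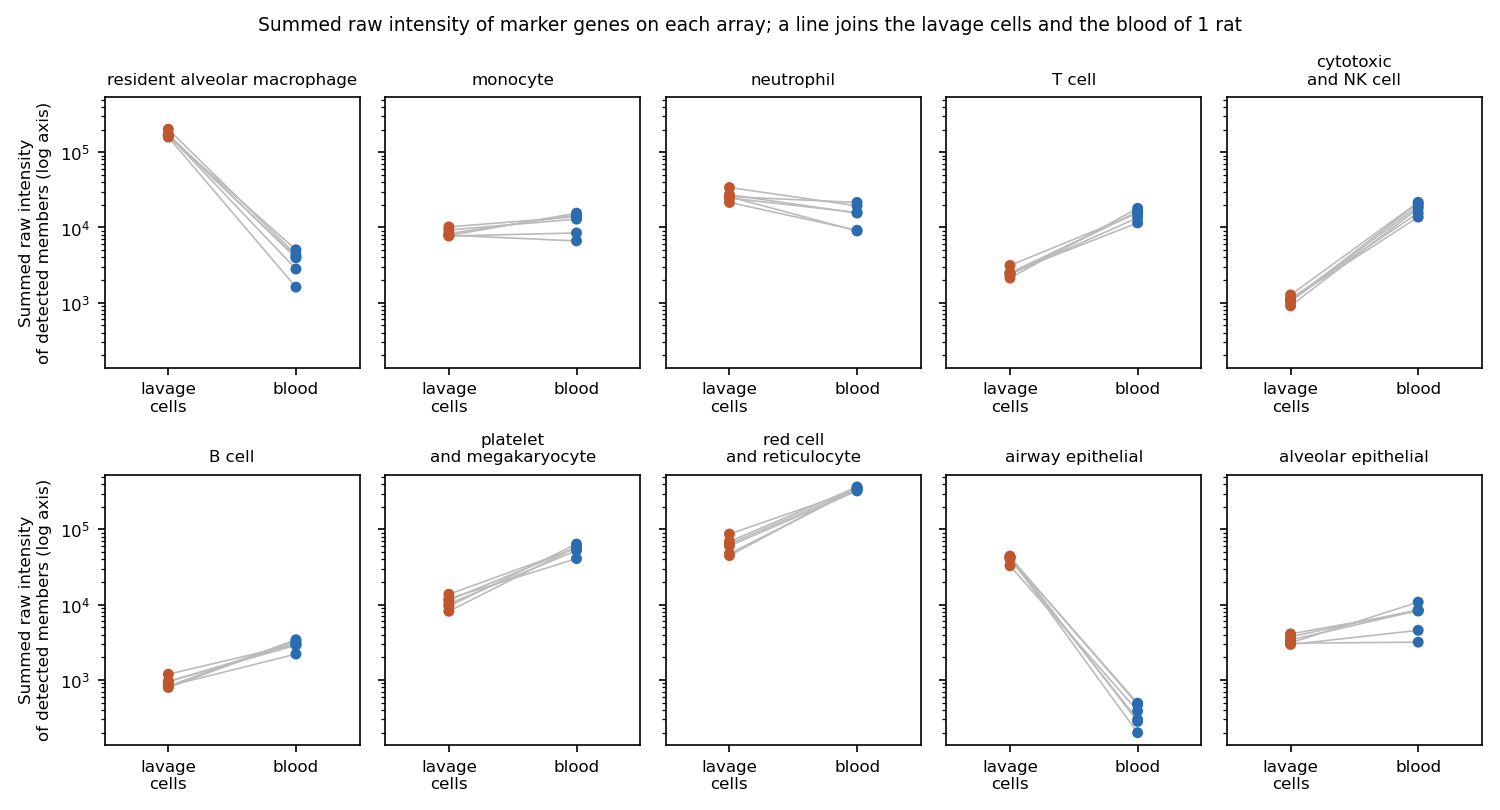
Summed raw intensity of the detected members of 10 marker lists on each array (log axis), lavage cells left and blood right, with a line for each of the 6 rats. Alveolar macrophage and airway epithelial sums are higher on all lavage arrays, red cell, platelet, T, NK and B cell sums on all blood arrays, and neutrophil, monocyte and alveolar epithelial sums overlap between the groups. Within every rat the neutrophil sum is higher in lavage cells and the alveolar epithelial sum higher in blood, while monocyte sums go both ways.

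Single lipid handling genes were among the largest differences, while the median of their list was not. Of 43 listed genes, 38 had a probe and 35 were tested, of which 27 were higher in lavage cells and 3 lower, with 19 and 2 at least 2-fold and a median of 1.19. All probes tested had 50.2% higher and 35.6% lower, with 26.6% and 20.6% at least 2-fold. Lpl is the lipoprotein lipase that frees fatty acids from triglyceride. Its difference was the largest among named genes detected on at least 3 arrays of each sample type. Lpl read 32671, 33335 and 34071 in lavage cells and 79.6, 94.6 and 110 in blood. All lavage arrays lay near the top of the intensity scale, while 5 of 6 blood arrays detected it close to the limit of detection, and the log2 difference was 9.37 (SE 0.15, adjusted p = 7.11e-12, limma). Trem2, a lipid-sensing receptor of macrophages, read 27172, 28129 and 30374 in lavage cells and 79.8, 92.5 and 107 in blood, without overlap. Its log2 difference was 9.28 (SE 0.16).

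Other members of the list differed in direction. Ch25h, the enzyme that makes 25-hydroxycholesterol, was detected only on lavage arrays among these 12 and was at least 44.6-fold higher. Plin2, which coats lipid droplets, had mean log2 levels of 14.83 ± 0.06 in lavage cells and 9.55 ± 0.46 in blood. The cholesterol transporters Abcg1 and Abca1 followed, Abcg1 with a difference of 4.82 and Abca1 at least 9.35-fold higher. Nr1h3, the oxysterol receptor LXR-alpha, was higher by 4.08 (SE 0.26). The 3 members lower in lavage cells were Acsl1, a long-chain acyl-CoA synthetase (-2.26), the fatty acid desaturase Fads2 (-1.94) and the fatty acid transporter Cd36 (-0.79). Apoe, the lipid carrier, did not pass the test, with 98.1, 140 and 367 raw in lavage cells, 91.5, 95.6 and 764 in blood and a difference of -0.43 (SE 0.61).

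Lysosomal genes were higher in lavage cells nearly throughout. Of 53 genes, 47 had a probe and 45 were tested, of which 40 were higher and 2 lower, with 36 and 2 at least 2-fold and a median of 2.25. Over all probes tested the shares were 50.2% higher and 35.6% lower, 26.6% and 20.6% at least 2-fold. Ctsk, the collagen-degrading cathepsin K, read 7669, 10388 and 14029 in lavage cells and 82.0, 89.0 and 105 in blood, with no overlap and a log2 difference of 7.44 (SE 0.15). Cd63, a tetraspanin of lysosomes, had 5389, 6154 and 6894 in lavage cells and 118, 145 and 157 in blood, again without overlap. Its difference was 4.79 (SE 0.10, adjusted p = 3.37e-11, limma). Ppt1, a thioesterase that removes palmitate from proteins, was higher by 4.67, and Atp6v0d2, a proton pump subunit typical of osteoclasts and macrophages, at least 19.7-fold. The macrophage lysosomal protein Cd68 was higher by 4.56 (SE 0.20), the membrane protein Lamp1 by 3.74 (SE 0.09) and the protease Ctsd by 2.06 (SE 0.09).

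Not all lysosomal enzymes took part. Smpd1, the acid sphingomyelinase (-1.28), and Man2b1, an alpha-mannosidase (-1.13), were lower in lavage cells. The cathepsin Ctsb (-0.07), the galactosidase Gla (-0.14) and the pump subunit Atp6v0d1 (0.15) did not pass the test. The group is shown with the promoters of Lamp1 and Ctsd, because lysosomal genes as a class are known for a shared promoter element, the CLEAR element read by the transcription factor TFEB. Its core was searched as TCACGTGA, which reads the same on both strands, in RefSeq promoters of assembly GRCr8 that span 250 bases before to 50 after each start. It was present in 5 of 33 lysosomal promoters in the table (15.2%) and in 0.777% of all 33469 promoters. Among genes at least 2-fold higher in lavage cells 2.31% held it, among those at least 2-fold lower 0.939%, and among the other tested genes 1.96%. The 250 bases before the start are printed 5′ to 3′ on the gene's strand, with the motif in capitals, for Lamp1 at chr16:83075064-83075313 (minus strand, 2 motifs) and Ctsd at chr1:206968822-206969071 (minus strand).
Lamp1: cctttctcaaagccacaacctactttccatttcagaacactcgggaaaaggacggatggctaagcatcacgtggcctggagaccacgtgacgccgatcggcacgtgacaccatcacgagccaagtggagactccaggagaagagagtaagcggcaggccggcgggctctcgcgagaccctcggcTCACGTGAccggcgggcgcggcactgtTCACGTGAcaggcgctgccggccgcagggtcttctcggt
Ctsd: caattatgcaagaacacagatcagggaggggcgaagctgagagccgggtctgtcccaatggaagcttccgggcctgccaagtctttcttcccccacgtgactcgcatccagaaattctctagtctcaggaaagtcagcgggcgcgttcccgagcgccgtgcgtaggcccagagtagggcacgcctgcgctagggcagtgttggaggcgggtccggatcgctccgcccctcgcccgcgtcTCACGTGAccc
The nearest motif began 39 bases before the start of Lamp1 and 11 bases before that of Ctsd. A match of letters is a description of the window and shows no binding.

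Receptors for particles, microbes and dying cells were split. Of 38 scavenger and pattern recognition receptors, 29 had a probe and 24 were tested, of which 14 were higher in lavage cells and 6 lower, with a median of 1.07. All probes tested were split too, 50.2% higher and 35.6% lower. Beside Mrc1, the oxidised lipoprotein receptor Olr1 was higher by 4.46 (SE 0.17), with 1170, 1394 and 2254 in lavage cells and 70.9, 79.8 and 93.1 in blood. The receptors that bind dying cells, Axl (4.24) and Mertk (at least 6.02-fold), were higher, as were the scavenger receptor Msr1 (at least 5.89-fold) and the beta-glucan receptor Clec7a (3.23). The Fc receptor probe named Fcgr3 in the file, now Fcgr2a, had 6701, 8147 and 10723 in lavage cells and 111, 300 and 395 in blood. Its log2 difference was 4.02 (SE 0.22). Among Toll-like receptors, Tlr4 was at least 2.92-fold higher in lavage cells and Tlr7 higher by 2.85, whereas Tlr2 was lower by the test at -2.45 (SE 0.17). The inducible lectin receptors Clec4e (-3.61) and Clec4d (-2.02) were also lower.

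Complement genes had a median of 0.07, with 6 of 14 tested members higher and 4 lower. Shares over all probes tested were 50.2% higher and 35.6% lower. The median was -0.094 without replicate 1, -0.073 without replicate 2 and -0.41 with a shift to the probes detected on all 12 arrays. The 6 were led by genes of the alternative and classical convertases. C2 read 25207, 26414 and 31213 in lavage cells and 112, 367 and 495 in blood, with no overlap and a log2 difference of 6.03 (SE 0.30). Cfb, factor B, had 5872, 6786 and 8167 in lavage cells and 72.5, 106 and 505 in blood. Its difference was 5.76 (SE 0.52), and 1 blood array, that of replicate 4, stood apart from the other blood arrays. Vsig4, a macrophage receptor for complement fragments, was at least 10.4-fold higher.

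Secreted cytokines and chemokines differed by gene rather than as a class. Of 25 tested, 15 were higher in lavage cells and 9 lower, with a median of 1.28. That was not far from all probes tested, of which 50.2% were higher and 35.6% lower. Cxcl9, a T cell attracting chemokine induced by interferon-gamma, read 13851, 14998 and 18482 in lavage cells and 87.2, 93.6 and 119 in blood. The groups were far apart and the log2 difference was 7.81 (SE 0.13, adjusted p = 9.76e-12, limma). Il18, an interleukin released through the inflammasome, had 5555, 6334 and 15142 in lavage cells and 78.5, 95.3 and 112 in blood. Its difference was 6.60 (SE 0.23), and replicate 4 was the lavage array far above the rest. Spp1, the secreted phosphoprotein osteopontin, was at least 14.7-fold higher, with 821, 1118 and 1937 in lavage cells and 69.5, 73.2 and 75.6 in blood.

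The interleukin-1 genes went opposite ways. Il1a was at least 12.7-fold higher in lavage cells and was detected on no blood array. Il1b was lower at -3.01 on the log2 scale (SE 0.23), with raw values of 619, 1186 and 1666 in lavage cells and 594, 4599 and 5940 in blood that overlapped. The neutrophil attractants Cxcl1 (2.80) and Cxcl2 (2.82) and the chemokines Ccl3 (3.00) and Ccl6 (4.06) were higher. Ccl5, a chemokine of activated T and NK cells, was the member lowest in lavage cells, with 77.5, 92.9 and 109 there and 6540, 9166 and 10586 in blood, a log2 difference of -8.04 (SE 0.11).

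Other genes named by size had no list. Prg4, the lubricating proteoglycan lubricin, was higher in lavage cells by 7.10 (SE 0.39), Dab2, an endocytic adaptor, by 7.77 and Fcgrt, the neonatal Fc receptor, by 6.49. Xrcc5, the DNA repair subunit Ku80, was higher by 6.41 (SE 0.08), with 20717, 23389 and 27245 in lavage cells and 144, 198 and 262 in blood. Pmepa1, an inhibitor of TGF-beta signalling, was higher by 6.84 and the secreted Fam3c by 6.58. Detected on every lavage array and no blood array were Prodh2, a hydroxyproline dehydrogenase (at least 100-fold), Pla2g15, the lysosomal phospholipase A2 (88.8-fold), Ccn3, a matricellular protein (74.1-fold), Car5b, a mitochondrial carbonic anhydrase (66.9-fold) and Mmp14, a membrane-bound metalloproteinase (56.4-fold), each a lower bound.

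**Figure D3:**
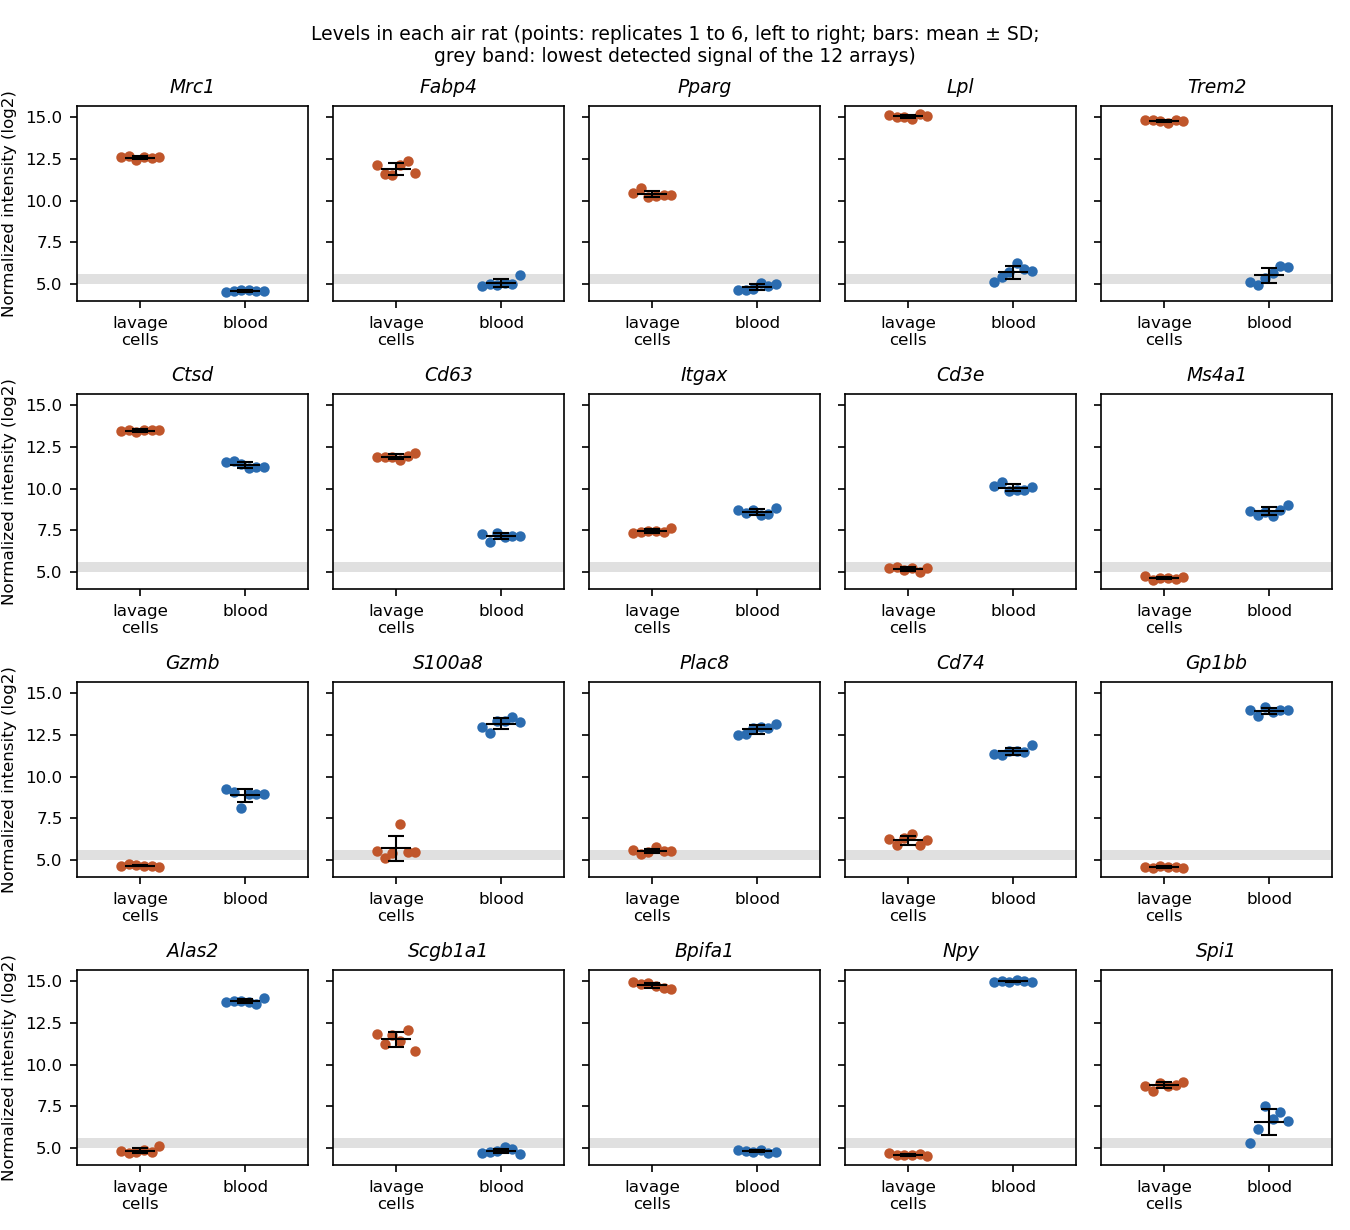
Log2 normalized intensity of 20 genes in each air rat, lavage cells left and blood right, with the mean and SD of 6 arrays; the grey band spans the lowest detected signal of the 12 arrays. The groups are apart for all 20 genes on this scale. The lower group of Mrc1, Fabp4, Pparg, Cd3e, Ms4a1, Gzmb, Gp1bb, Alas2, Scgb1a1, Bpifa1 and Npy lies within or below the band.

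Genes of red cells and reticulocytes, the cells that carry and make haemoglobin, had the lowest median of the 30 gene lists. Of 44 genes, 36 had a probe and 33 were tested, of which 29 were lower in lavage cells and 1 higher, with 28 at least 2-fold lower and a median of -6.04. The shares of all probes tested were 35.6% lower and 20.6% at least 2-fold lower. Every blood array detected 31 members, and 16 were detected on every lavage array. With detection required on all 12 arrays the median was -3.45. Alas2, the erythroid enzyme that starts haem synthesis, read 64.3, 66.4 and 82.1 in lavage cells and 10251, 12310 and 14652 in blood. The groups did not come near each other and the log2 difference was -8.98 (SE 0.08). As only 1 lavage array detected the gene, this difference rests largely on background-level lavage signal. Ahsp, the chaperone of alpha-globin, had 62.8, 67.5 and 85.2 in lavage cells and 31519, 33038 and 35444 in blood, a difference of -10.15 (SE 0.09). Fech, which inserts iron into haem, was lower by the test at -7.97, and the band 3 anion exchanger Slc4a1 at -7.44.

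The globin probes were detected on every lavage array. Hba-a2, an alpha-globin gene, read 1992, 10404 and 23747 in lavage cells and 31163, 32079 and 35309 in blood, and Hbb, a beta-globin gene, 1722, 8568 and 20122 in lavage cells and 30006, 31538 and 32626 in blood. The lavage arrays thus varied widely for both globins, with an SD of 1.68 and 1.67 on the log2 scale against 0.05 and 0.05 in blood. Both were lower in lavage cells, at -2.58 (SE 0.50) and -2.81 (SE 0.49). Globin transcripts had been depleted from blood RNA only, and how that moved these 2 differences was not tested.

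The erythroid regulators followed the haem genes. Gata1, the master factor of red cell and platelet precursors, was detected on no lavage array and was at least 63.3-fold lower there, and Klf1, which activates globin genes, at least 95.3-fold lower. Nfe2, a factor of late red cells and platelets, was lower at -7.31 on the log2 scale (SE 0.11). The membrane skeleton gene Add2, beta-adducin, was at least 684-fold lower, and the tetraspanin Tspan33 at least 477-fold. Rhd, a blood group antigen, was at least 323-fold lower, with 56.7, 61.9 and 67.9 in lavage cells and 7665, 8786 and 10447 in blood. Tfdp2 (-8.92), a partner of E2F factors, and Rbm38 (-8.76), an RNA-binding protein of late erythroid splicing, had the largest differences in this direction among named genes detected on at least 3 arrays of each sample type. Only the glutathione synthesis gene Gclc was higher among the red cell members, by 0.98, and Cpox, Uros and Ppox, enzymes of haem synthesis present in all cells, did not pass the test.

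Promoters of Alas2 and Rhd are shown because red cell genes are known for GATA elements bound by GATA1. The letters TGATAA and AGATAA were searched on both strands of the same windows. Of 22 red cell promoters in the table, 8 held either (36.4%), against 18.9% of all 33469. Other lists had like shares, namely platelet genes with 5 of 9 promoters (55.6%), eosinophil, basophil and mast cell genes with 2 of 4 (50%), MHC class II genes with 3 of 7 (42.9%), resident macrophage genes with 4 of 13 (30.8%) and neutrophil genes with 3 of 10 (30%). Among genes at least 2-fold lower in lavage cells 14.9% held one, among those at least 2-fold higher 9.34%, and among the other tested genes 9.39%. The 250 bases before the start are given with the motif in capitals for Alas2 at chrX:22895200-22895449 (plus strand) and Rhd at chr5:152370950-152371199 (plus strand), from RefSeq on GRCr8.
Alas2: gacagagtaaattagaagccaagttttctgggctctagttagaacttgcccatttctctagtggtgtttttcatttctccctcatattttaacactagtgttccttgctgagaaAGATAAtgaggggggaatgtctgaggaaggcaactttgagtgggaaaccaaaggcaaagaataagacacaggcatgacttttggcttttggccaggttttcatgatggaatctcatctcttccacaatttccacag
Rhd: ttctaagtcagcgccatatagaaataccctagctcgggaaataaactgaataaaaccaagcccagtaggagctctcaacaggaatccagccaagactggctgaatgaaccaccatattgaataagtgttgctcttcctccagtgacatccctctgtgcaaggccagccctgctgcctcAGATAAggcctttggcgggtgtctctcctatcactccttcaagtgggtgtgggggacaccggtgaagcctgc
The motif began 136 bases before the start of Alas2 and 72 bases before that of Rhd. The letters GAGGAAGT, searched for the macrophage factor PU.1, were in 2.42% of all promoters and in 0 of 13 promoters of resident macrophage genes, which says only that these letters are not in those windows.

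Platelet and megakaryocyte genes were lower in lavage cells for 11 of 12 tested members, with a median of -5.84. Over all probes tested 35.6% were lower. On all 6 blood arrays 11 members were detected and on all 6 lavage arrays 3, so most were tested through blood alone. With detection required on all 12 arrays the median was -2.45. Gp1bb, a chain of the von Willebrand factor receptor, read 51.6, 54.2 and 59.8 in lavage cells and 11160, 14059 and 16272 in blood. It was detected on no lavage array and was at least 482-fold lower there. Gp9, of the same receptor, was at least 77.3-fold lower, Clec1b, the platelet podoplanin receptor, lower at -7.57, and the chemokine Ppbp at -5.82. Pf4, platelet factor 4, differed from these in being bright in both, with 5766, 8248 and 10254 in lavage cells and 20375, 28692 and 32304 in blood. Its difference was -2.35 (SE 0.14). The member higher in lavage cells was Tbxas1, thromboxane synthase, which macrophages also make, by 4.15 (SE 0.28).

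T cell genes were lower in lavage cells for 23 of 25 tested members, all 23 at least 2-fold, with a median of -3.42. The share lower was 35.6% over all probes tested, and 20.6% at least 2-fold. All 6 blood arrays detected 23 members and all 6 lavage arrays 10, so most were tested through blood alone. Cd3e, a chain of the T cell receptor complex, read 73.3, 85.3 and 94.0 in lavage cells and 494, 656 and 764 in blood, without overlap. Its log2 difference was -4.88 (SE 0.08, adjusted p = 1.09e-11, limma). Cd3g was lower at -5.54. Cd8a, the co-receptor of cytotoxic T cells, had 192, 309 and 344 in lavage cells and 1418, 1817 and 1958 in blood, a difference of -4.30 (SE 0.10). Cd4, the co-receptor of helper T cells that rat macrophages also carry, read 87.5, 108 and 178 in lavage cells and 84.9, 90.9 and 102 in blood. These groups overlapped and the difference of 0.03 (SE 0.13) did not pass the test (adjusted p = 0.826, limma). Its call depended on the scaling, with Cd4 higher in lavage cells by 0.66 under the median shift (adjusted p = 0.00595, limma) and lower at -1.13 when the probes detected on all 12 arrays were levelled (adjusted p = 3.35e-06, limma). The summed T cell markers were 2128 to 3129 on lavage arrays and 11492 to 17980 on blood arrays, with 12 to 17 and 23 to 25 members detected.

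Cytotoxic and NK cell genes were lower for 14 of 15 tested members, with a median of -4.23. Of the members, 13 were detected on all 6 blood arrays but 4 on all 6 lavage arrays, so most were tested through blood alone. Over all probes tested 35.6% were lower. Prf1, the pore protein perforin, had 83.0, 88.4 and 94.8 in lavage cells and 2317, 3033 and 3526 in blood, a difference of -6.81 (SE 0.09). The granzymes Gzma and Gzmb were detected on no lavage array, at least 55.7-fold and 14.3-fold lower. The granule gene Nkg7 was detected on all arrays, with 346, 437 and 488 in lavage cells and 1315, 1730 and 2195 in blood, and was lower at -3.76 (SE 0.09). Cd244, a receptor of NK cells also found on myeloid cells, was higher in lavage cells, at least 1.08-fold.

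All 9 tested B cell genes were lower in lavage cells, 8 of them at least 2-fold, with a median of -2.02. Among all probes tested 35.6% were lower, and 20.6% at least 2-fold. Every blood array detected all 9, and 5 were detected on every lavage array. Ms4a1, which encodes CD20, read 54.7, 57.4 and 63.8 in lavage cells and 197, 255 and 348 in blood, was detected on no lavage array and was at least 12-fold lower. Cd79b, a chain of the B cell receptor complex, had 83.9, 87.8 and 97.5 in lavage cells and 106, 129 and 133 in blood, a difference of -1.58 (SE 0.10). Of the plasma cell genes, the joining chain Jchain was lower at -4.47, while Xbp1, a factor of the secretory stress response that is not confined to plasma cells, was higher by 3.61 (SE 0.13). Cd52, a surface glycoprotein of lymphocytes, was at least 436-fold lower in lavage cells and reached 10932, 12115 and 14368 in blood.

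Neutrophil genes were lower for 12 of 16 tested members, against 35.6% of all probes tested, with a median of -2.05. On every blood array 15 members were detected, and 8 on every lavage array. S100a8, a subunit of calprotectin, read 84.6, 97.2 and 363 in lavage cells and 4590, 8304 and 11005 in blood, a log2 difference of -7.50 (SE 0.21). The lavage array of replicate 4 held the 363 and stood apart from the other lavage arrays. The collagenase Mmp8 was lower at -5.74, the chemokine receptor Cxcr2 at -4.59 and the bacterial wall receptor Pglyrp1 at least 35.7-fold. The probe named Il8ra in the file, now Cxcr1, ran against the list, with 10806, 13500 and 16721 in lavage cells and 79.9, 86.7 and 93.3 in blood. Its difference was 8.10 (SE 0.15), and Trem1, an activating receptor of myeloid cells (1.64), Mcemp1 (1.55) and the leukotriene synthesis gene Alox5ap (0.83) were higher too. The summed neutrophil markers, these 4 included, were 21480 to 33926 in lavage cells and 8980 to 21480 in blood. S100a9, the other calprotectin subunit, was detected on 0 lavage arrays and 1 blood array and was not tested.

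Of 12 monocyte genes tested, 6 were lower in lavage cells and 3 higher, with a median of -0.73, or 0.13 with a median shift of the arrays. Shares over all probes tested were 35.6% lower and 50.2% higher. Plac8, a gene of inflammatory monocytes and granulocytes, read 95.7, 100 and 132 in lavage cells and 3508, 6339 and 7439 in blood, a difference of -7.30 (SE 0.10). The surface antigen Ly6c was lower at -4.79, the clotting factor subunit F13a1 at -3.86 and the lectin Fcnb at least 46-fold. Ccr2, the receptor that draws monocytes into tissue, had 92.3, 107 and 109 in lavage cells and 112, 117 and 130 in blood, close to the limit of detection in both, with a difference of -1.19 (SE 0.10). Cd14, the endotoxin co-receptor, was higher in lavage cells by 2.76 (SE 0.29).

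Eosinophil, basophil and mast cell genes were mostly not measurable, with 5 of 16 tested and all 5 lower in lavage cells. Of all probes tested 35.6% were lower. Alox15, the 12/15-lipoxygenase of eosinophils and reticulocytes, read 1663, 2331 and 2710 in lavage cells and 30512, 33853 and 36769 in blood, a difference of -4.83 (SE 0.09). It held most of that list's summed signal of 1960 to 3216 in lavage cells and 31129 to 37634 in blood.

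The receptors and adhesion molecules by which leukocytes leave the blood were lower in lavage cells for 17 of 22 tested members. Their median was -1.78, and 35.6% of all probes tested were lower. Itgb7, an integrin chain for homing to the gut, was lower at -5.25, the lymphocyte receptor S1pr4 at -4.89 and the lymph node homing receptor Ccr7 at -4.09. Klf2, the factor that keeps lymphocytes in circulation, read 183, 217 and 245 in lavage cells and 488, 860 and 1014 in blood, a difference of -3.71 (SE 0.11). The 3 higher members were Icam1, a ligand of leukocyte integrins (1.91), Itgb2, the common chain of those integrins (1.29), and the chemokine receptor Ccr1 (0.82). Emb, embigin, a cell adhesion protein outside the list, was lower at -8.25 (SE 0.08).

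MHC class II genes, which present antigen to helper T cells, were lower in lavage cells for 6 of 7 tested members, with a median of -3.73. For all probes tested the share lower was 35.6%. Cd74, the invariant chain, had 122, 150 and 240 in lavage cells and 1187, 1973 and 2596 in blood, without overlap and with a difference of -5.35 (SE 0.11). RT1-Da was lower at -3.73, RT1-Ba at -4.47 and RT1-Db1 at -4.59. The dendritic cell maturation marker Cd83 was higher by 2.59 (SE 0.07), with 7407, 9120 and 10982 in lavage cells and 432, 696 and 770 in blood. It held so much of the list's signal that the summed intensities overlapped, at 9285 to 13989 in lavage cells and 8885 to 17297 in blood.

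Interferon response genes were lower in lavage cells for 16 of 23 tested members and higher for 5, with a median of -1.01. All probes tested had 35.6% lower and 50.2% higher. Ifit1, an inhibitor of viral translation, read 82.0, 92.2 and 174 in lavage cells and 3774, 5325 and 7698 in blood, a difference of -7.35 (SE 0.17). Irf7, the factor that amplifies interferon genes, was lower at -5.75, the antiviral Oasl at -5.05 and Mx1 at -3.49. The RNA sensors Ifih1 (1.06) and Dhx58 were higher. The list's median was 0.71 with a median shift of the arrays, so the direction of the list as a whole depended on the scaling, and the summed raw intensities overlapped at 22095 to 31840 in lavage cells and 15112 to 33415 in blood.

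**Figure D4:**
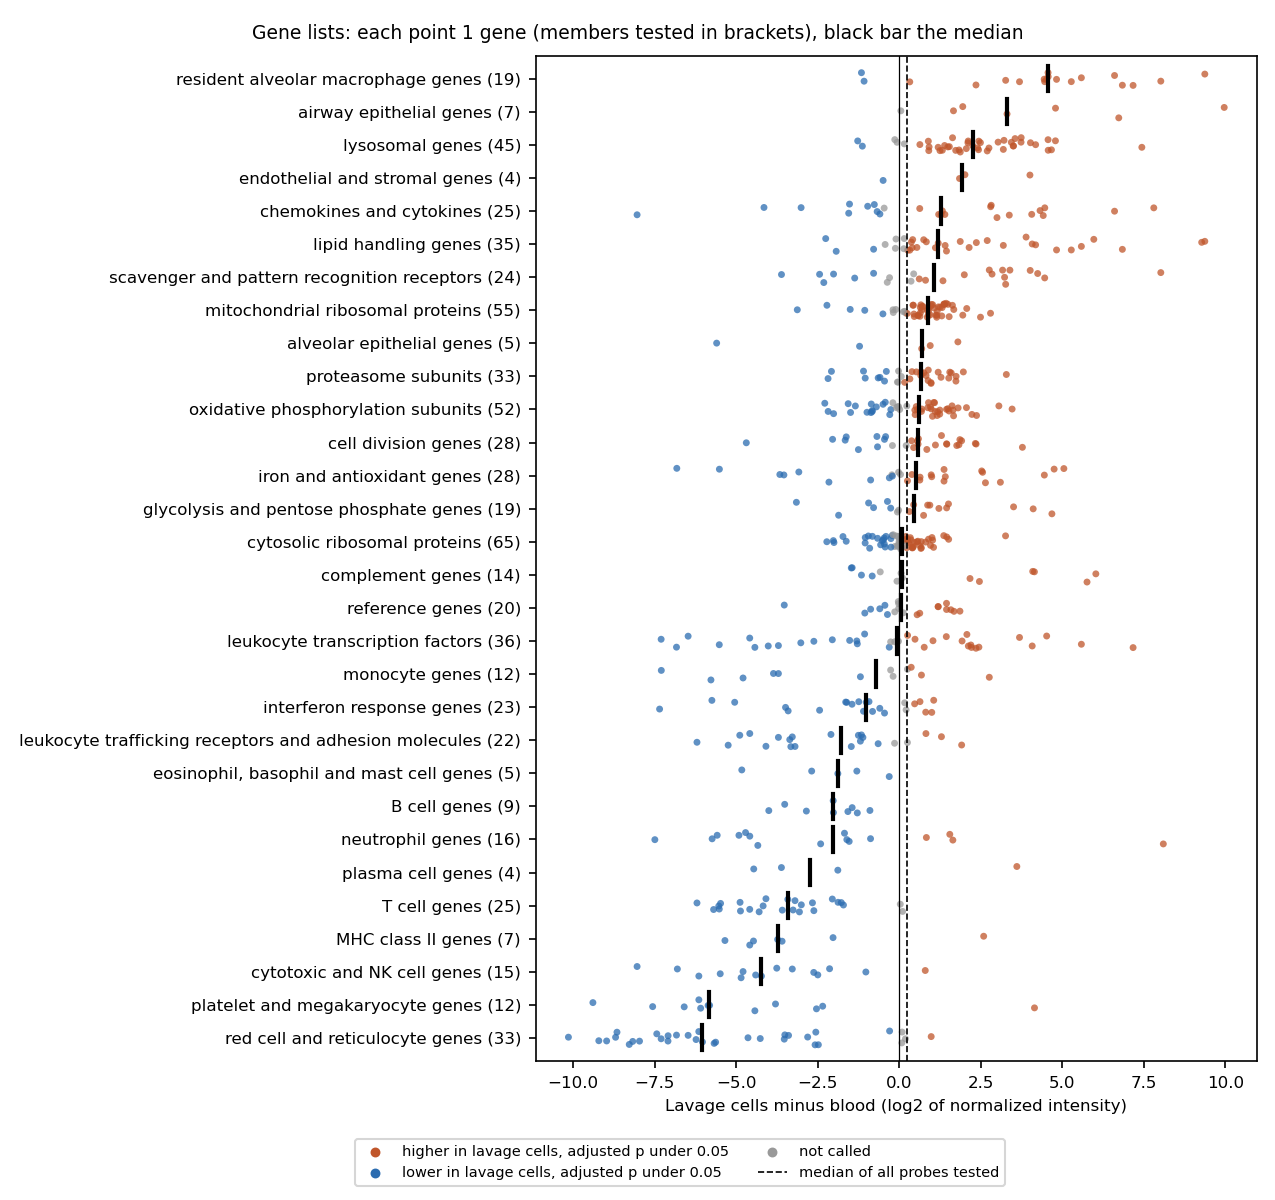
Log2 difference, lavage cells minus blood, of each tested member of 30 gene lists, coloured by the test, with the list median as a black bar and the median of all 9221 probes (0.25) as a dashed line. Resident alveolar macrophage genes (4.56) are at the top, and red cell (-6.04) and platelet genes (-5.84) at the bottom.

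Transcription factors of leukocytes were split evenly, with 17 of 36 tested members higher in lavage cells and 16 lower. For all probes tested the shares were 50.2% and 35.6%. The median of the list was -0.08, or 1.05 with a median shift of the arrays. Bhlhe41, a repressor needed for alveolar macrophage identity in mice, read 6739, 7188 and 9537 in lavage cells and 77.5, 82.6 and 90.2 in blood, a difference of 7.17 (SE 0.08). Its relative Bhlhe40 was higher by 4.52 and Cebpb, a macrophage activator, by 3.69. Spi1, which encodes PU.1, had 723, 889 and 1086 in lavage cells and 82.0, 123 and 157 in blood, a difference of 2.20 (SE 0.22). The lymphocyte factors went the other way, Tcf7 at least 38.8-fold, Lef1 at least 3.99-fold and Ets1 at -4.02.

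Markers of cells that line the lung were also present on the lavage arrays. Of 14 airway epithelial genes, 11 had a probe and 7 were tested, of which 6 were higher in lavage cells and 0 lower, with a median of 3.31. Shares over all probes tested were 50.2% and 35.6%. All 7 were detected on every lavage array and 1 of them, Krt8, on every blood array, and with detection required on all 12 arrays Krt8 alone was left and the median was 0.049. Bpifa1 (Plunc in the file), a secreted airway defence protein, read 24642, 29840 and 30444 in lavage cells and 70.4, 74.2 and 77.7 in blood. It was at least 685-fold higher, the largest bound among named genes higher in lavage cells. Scgb1a1, the club cell secretory protein, had 3238, 5475 and 6079 in lavage cells and 66.2, 73.8 and 83.8 in blood and was at least 73.4-fold higher. Scgb3a1 was higher by 4.79 (SE 0.42), the club cell cytochrome Cyp2f4 at least 6.15-fold and the epithelial adhesion molecule Epcam at least 2.29-fold, while the keratin Krt8 did not pass the test (0.05, SE 0.22). The summed markers were 32921 to 44291 in lavage cells, with 8 to 10 of 11 members detected, and 199 to 492 in blood, with 2 to 4 detected.

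Most alveolar epithelial genes were not tested, although Napsa and Hopx were bright. Napsa read 2328, 2432 and 3253 in lavage cells and 936, 2340 and 3292 in blood. Its raw groups overlapped and the log2 difference was -1.22. Of 14 genes in the list, 13 had a probe and 5 were tested, 3 higher and 2 lower in lavage cells, with a median of 0.69. The median was -0.74 with a shift to the probes detected on all 12 arrays and -3.41 with detection required on all 12. Sftpc, the surfactant protein of type 2 cells, was detected on 2 lavage arrays and 0 blood arrays and was not tested, and Ager, Sftpd, Nkx2-1 and Lamp3 were detected on no array. The lipid pump Abca3 was at least 2.34-fold higher and the surfactant gene Sftpa1 at least 1.33-fold, although Sftpa1 did not pass the test with scaling to the reference genes (0.087, adjusted p = 0.697, limma) and was at -0.49 with the levelling. Hopx, a marker of type 1 cells that lymphocytes also express, had 228, 251 and 414 in lavage cells and 2245, 5685 and 7528 in blood, a difference of -5.60. Of 16 endothelial and stromal genes 4 were tested, and the matrix proteoglycan Dcn was at least 10.4-fold higher in lavage cells, with 510, 920 and 1173 there and 65.1, 69.7 and 75.8 in blood. The part of epithelial and stromal RNA in the other differences was not tested.

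Iron and antioxidant genes went both ways, with 16 of 28 tested members higher in lavage cells, 9 lower and a median of 0.51. These counts were near the shares over all probes tested, 50.2% higher and 35.6% lower. Hmox1, which breaks down haem, had 5785, 6965 and 7653 in lavage cells and 109, 156 and 202 in blood, a difference of 4.75 (SE 0.14). The copper oxidase Heph was at least 25.7-fold higher, the peroxiredoxin Prdx5 higher by 4.45 and the metallothionein Mt1 by 3.10. Slc40a1, the iron exporter ferroportin, was detected on no lavage array and was at least 94.2-fold lower, with 1423, 2117 and 2565 in blood. Gclm, a subunit of the enzyme that starts glutathione synthesis, was lower at -5.52, and the red cell antioxidants Prdx2 (-3.54) and Cat (-3.08) were lower. The ferritin chains Fth1 (0.04) and Ftl1 (-0.02) did not pass the test and read near the top of the scale in both sample types.

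Energy and housekeeping genes differed at most members, with list medians of 0.05 to 0.89. The same held for all probes tested, of which 50.2% were higher and 35.6% lower, so differing at most members is not particular to these lists. Mitochondrial ribosomal proteins were farther to the higher side than all probes, with 44 of 55 higher and 5 lower. Of 52 oxidative phosphorylation subunits 30 were higher in lavage cells and 16 lower (median 0.62), of 55 mitochondrial ribosomal proteins 44 and 5 (0.89), of 33 proteasome subunits 21 and 8 (0.66), and of 65 cytosolic ribosomal proteins 31 and 21 (0.09). The glycolysis list had 11 of 19 higher and 6 lower (0.44), with the phosphofructokinase Pfkp (4.68), the gluconeogenic enzyme Fbp1 (4.11) and the hexokinase Hk3 (3.51) highest and the lactate dehydrogenase chain Ldhb (-3.16) lowest. Fbp1 read 1504, 1790 and 1994 in lavage cells and 76.8, 80.3 and 396 in blood, where replicate 4 alone reached 396. Of 20 reference genes 9 were higher and 6 lower (0.05), and Gapdh (-0.02) and B2m (-0.02) did not pass the test. Scaling to the reference genes moved the median of all probes tested to 0.13. When the probes detected on all 12 arrays were levelled instead, the medians of cytosolic ribosomal proteins (-1.22), glycolysis (-0.15) and reference genes (-0.60) were below 0.

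Cell division genes were not of 1 direction either, with 17 of 28 tested members higher in lavage cells, 9 lower and a median of 0.57. Nor were all probes tested, with 50.2% higher and 35.6% lower. The mitotic kinase Cdk1 had 874, 1062 and 1436 in lavage cells and 76.2, 86.5 and 94.7 in blood, a difference of 3.78 (SE 0.13). The cyclin Ccna2 was at least 3.27-fold higher and the spindle protein Prc1 higher by 2.33. Ube2c, a ubiquitin-conjugating enzyme of mitotic exit, was lower at -4.69 (SE 0.07), with 354, 407 and 473 in lavage cells and 3380, 3544 and 4024 in blood. The proliferation marker Mki67 was lower at -1.25 (SE 0.10).

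A pair of secreted products stood at the extreme low end in lavage cells. Npy, neuropeptide Y, read 52.0, 55.4 and 60.9 in lavage cells and 31100, 33336 and 36728 in blood. It was detected on no lavage array and was at least 998-fold lower there, the largest bound among all named genes. Pla2g2a, a secreted phospholipase A2, was at least 510-fold lower and the growth factor Nrtn, neurturin, lower at -7.19.

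Rats differed little beside these contrasts. Over the 5689 probes detected on all 12 arrays, the median SD among rats was 0.11 in lavage cells and 0.20 in blood, and it was larger in blood for 81.3% of the probes. The median difference of resident macrophage genes ran from 4.27 to 5.03 over the 6 rats, that of lysosomal genes from 1.94 to 2.71 and that of lipid handling genes from 1.14 to 1.35. Red cell genes ran from -6.46 to -5.79, T cell genes from -3.86 to -3.27 and MHC class II genes from -4.10 to -3.49. Airway epithelial genes varied more, from 2.78 to 4.22. The complement list ran from -0.59 to 0.91 and so had no common direction over the rats.

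The same contrast was computed in the 6 silica rats, whose arrays were normalized on their own. Of 9349 probes tested there, 2412 were at least 2-fold higher in lavage cells (25.8%) and 1941 lower (20.8%). The silica rats shared 3861 probes in the same direction with the air rats, which was 88.7% of the list of the silica rats and 88.6% of that of the air rats, and 0 in opposite directions. Each rat's difference was then compared between silica and air rats with all 24 arrays normalized together, and 1367 of 9617 probes (14.2%) passed the test, 676 with a larger and 691 with a smaller value in silica rats.

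MHC class II and T cell genes were among those whose difference from blood was smaller in silica rats. The class II median was -1.66 in silica rats and -3.69 in air rats, with 4 of 7 members differing by the test, each nearer 0 in silica rats. Cd74 had a difference of -2.46 in silica rats and -5.36 in air rats (2.90 apart, SE 0.31, adjusted p = 1.70e-05, limma). The T cell median was -2.73 in silica rats and -3.47 in air rats, with 17 of 25 members differing and 0 the other way. Resident macrophage genes had medians of 4.199 and 4.54 in silica and air rats, with 7 of 19 smaller and 1 larger in silica rats. Spp1 had the largest change of the computed difference among the named genes, at 8.41 in silica rats and 4.52 in air rats. Lpl (9.14 and 9.34, adjusted p = 0.70, limma) and Bpifa1 (9.78 and 9.96, adjusted p = 0.451, limma) did not pass the test. Ferroportin, Slc40a1, was at -4.18 in silica rats and -6.87 in air rats, and Alox15 at -6.52 and -4.77. In air rats no blood array detected Spp1 or Bpifa1 and no lavage array Slc40a1. Their differences there rest on background-level signal and are no measured folds. Whether lavage cells or blood moved was not tested.

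**Figure D5:**
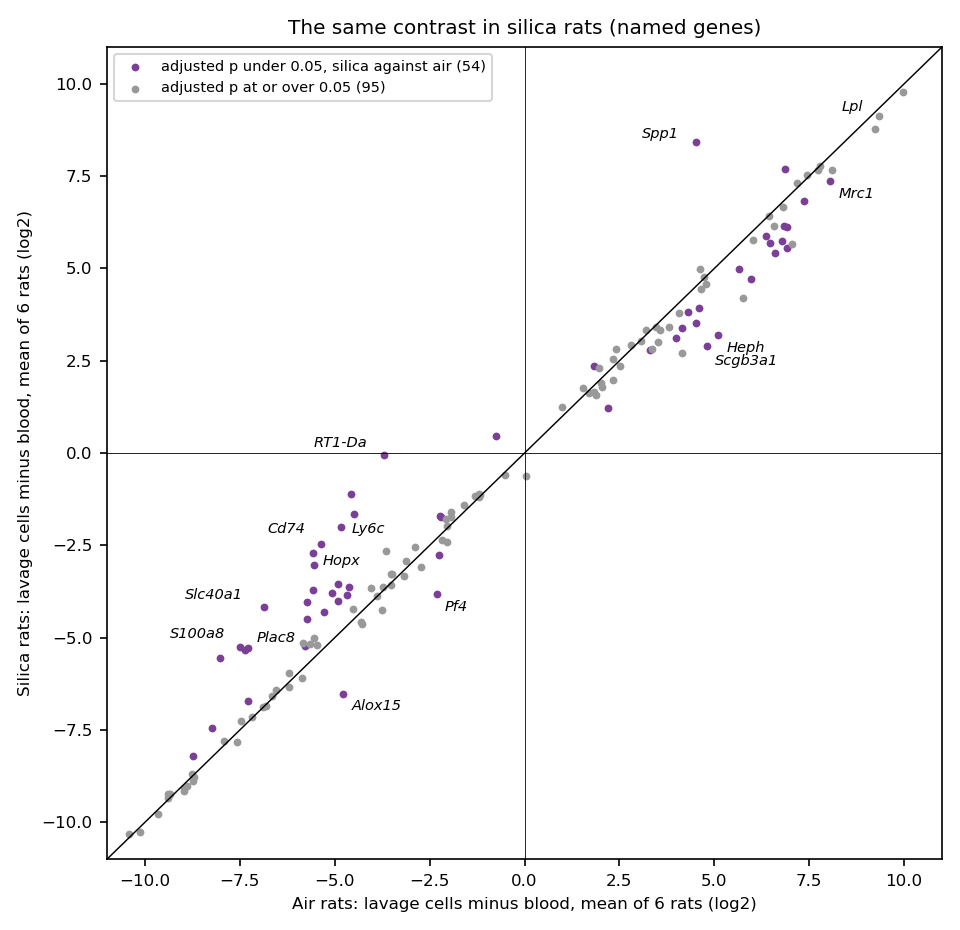
Log2 difference, lavage cells minus blood, of the 149 named genes with a value in both exposures, silica rats on the vertical and air rats on the horizontal axis, 6 rats each. The 54 genes that differed between silica and air rats by the test are coloured, with Spp1 (8.41 against 4.52) and RT1-Da (-0.05 against -3.69) farthest above the diagonal.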

How the data were processed

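RNA of lavage cells and of blood of 6 air rats was read on 12 Illumina rat BeadChips. Per the file headers, the deposited tables give each probe's mean bead intensity before normalization between arrays, with a detection p-value that ranks it among negative-control beads. BeadStudio, lumi and limma are named in the submitters' processing notes with no version or role, and slides and scanning dates are not stated in the sources used here. A further table holds the authors' processed values on a log2-like scale, used only as an alternative. Their array medians were 7.52 to 7.52 in lavage cells and 7.21 to 7.22 in blood, and they kept the rank order of the intensities, while their transformation of dim probes is unknown.

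The intensities of the 12 arrays were background corrected (normexp of limma 3.58.1 in R 4.3.3, offset 16), quantile normalized together and put on the log2 scale. The background was inferred from the detection p-values of single-probe rows. The other 656 rows average several probes, and their deposited p-values contradict their signal. With them the background SD would be 157 to 300 instead of 11.3 to 15.8. Of these rows 250 passed the filter and 124 did not although their signal was above the detection limit on all 6 arrays of a sample type, among them Cxcl16, Stat2, Dgat2 and Gypc of the gene lists, which are counted as not detected.

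Sample type was tested with lmFit and eBayes, two-sided, with rat as a block, since the labels give both samples of a number to the same rat. Deviations of the 2 arrays of a rat correlated at -0.088 to 0.079, and 1 of 6 matched best with its own number. P-values were adjusted over all 9221 probes by Benjamini-Hochberg. The rats are separate animals, and the number of arrays limits the precision. A list holds for each gene the probe of highest mean raw intensity. Of 52 genes with several tested probes, 10 had probes called in opposite directions. Names were updated through a RefSeq table of assembly GRCr8, where current symbols matched for 9918 probes and synonyms for 4817, while 6940 kept the file's symbol and 117 had none. For silica rats, 1 blood sample has a number in its title that differs from its column, and the rat given in its label was used.

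Genes were named by rule: the 12 largest differences in each direction among called probes detected on at least 3 arrays of the dimmer sample type, the 8 largest lower bounds in each direction, up to 4 called members of each list, and 30 genes fixed by name. Some genes that the rule names are not reported here, though they stay in the fits and the list counts. Further list members are given as values. The members, the 30 lists and the tests were chosen with earlier results of these data known. The test was run on simulated data. Alternatives covered the block, background, scaling, filter, variance model, array weights, fold and each rat left out. The background from all rows, detection of averaged rows by signal and scaling to reference genes were added after the data were seen.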

Additional observations from a re-analysis of the deposited data

Results flagged for a closer look

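Among 255 combinations of a named gene and a sample type, 26 held 1 array that lay apart from the other 5 by Dixon's ratio, and among 60 combinations of a gene list and a sample type, 9 did. Chance alone gives about 5% of such groups. Of these 35 instances, 14 were lavage replicate 4, the lavage array with the highest 95th percentile of raw intensity. Its log2 level was the highest of 6 for Dab2 at 14.65, Il18 at 13.31, S100a8 at 7.17, Ifit1 at 6.12, Cxcr2 at 5.29 and Mmp8 at 5.14, and the lowest for Vcp at 11.85. Its summed raw intensity was the highest of 6 for T cell genes at 3129, chemokines and cytokines at 103440, complement genes at 58012, interferon response genes at 31840, leukocyte trafficking receptors at 22234, proteasome subunits at 130962 and resident alveolar macrophage genes at 201638.

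On other lavage arrays, Emb at 5.58 was high in replicate 1, Prf1 at 5.05 low in replicate 2 and Axl at 9.30 high in replicate 5. In replicate 6, Ahsp at 5.17 and Sftpc at 5.76 were high and Clec1b at 4.85 low, and the summed airway epithelial genes were low at 32921. In blood, replicate 3 was low for 4 genes of cytotoxic cells, Ccl5 at 13.01, Prf1 at 11.80, Klrd1 at 9.82 and Gzmb at 8.09. Blood replicate 4 was high for Cfb at 9.59 and Fbp1 at 9.19, and blood replicate 5 for Prc1 at 7.74 and S100a9 at 5.63. Blood replicate 1 was high for Mrpl53 at 11.99 and low for Hdc at 6.22 and for the summed endothelial and stromal genes at 89.0. Dab2 at 5.89 was low in blood replicate 2, and in blood replicate 6 Fabp4 at 5.55 was high and Pmepa1 at 5.20 low.

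The difference between lavage cells and blood was not the same in silica and air rats for 54 named genes, by limma on each rat's difference. Values are silica rats minus air rats on the log2 scale. Where a sample type did not detect a gene, its background-level signal entered the difference. Of the named antigen presentation genes, RT1-Da was at 3.64, RT1-Db1 at 3.45, Cd74 at 2.90 and RT1-Ba at 2.83. Positive lymphocyte genes were Cd3g at 2.51, Ccl5 at 2.47, Tcf7 at 1.87, Cd247 at 1.70, Cd3e at 1.38, Itgb7 at 0.97 and S1pr4 at 0.91. Cd8a at -0.26 did not pass the test (adjusted p = 0.397, limma). Larger and smaller members in silica rats were 17 and 0 for T cell genes, 3 and 1 for cytotoxic and NK cell genes and 10 and 4 for trafficking genes. Of 9 B cell genes 0 differed. Among named monocyte, neutrophil and interferon genes, positive values were found for Ly6c at 2.82, S100a8 at 2.25, Ifit1 at 2.01, Plac8 at 2.004, Oasl at 1.28, Irf7 at 1.24, Cxcr2 at 1.02 and Mmp8 at 0.57. Their lists ran both ways, with 3 monocyte members larger in silica rats and 2 smaller, 4 and 3 neutrophil members, and 3 and 7 interferon response members. Further positive values were 3.90 for Spp1, 2.88 for Hopx, 2.70 for Slc40a1, 1.21 for Car4, 0.84 for Ube2c, 0.83 for Fabp4, 0.79 for Emb, 0.57 for Nfe2, 0.53 for Rbm38, 0.52 for Mrpl37, 0.52 for Vcp and 0.47 for Psmd9.

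Among named macrophage, receptor, complement and lysosomal genes, negative values were found for C2 at -1.24, Pla2g15 at -1.37, Il18 at -1.19, Spi1 at -0.996, Olr1 at -0.97, Fcgr2a at -0.89, Fcgrt at -0.79, Vsig4 at -0.74, Mrc1 at -0.69, Ppt1 at -0.67, Pparg at -0.66 and Axl at -0.47. Of their lists, resident macrophage genes had 1 member larger in silica rats and 7 smaller, scavenger receptors 2 and 12, complement genes 1 and 4 and lysosomal genes 3 and 6. The airway secretory genes Scgb3a1 at -1.90 and Scgb1a1 at -1.03 were negative too. The others were Heph at -1.90, Alox15 at -1.74, Pf4 at -1.51, Car5b at -0.79, Ccn3 at -0.69, Prodh2 at -0.54, Ndufa1 at -0.53, Psmd2 at -0.50 and Xrcc5 at -0.47.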

How the results depend on the processing

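Without the replicate block that pairs the 2 arrays of a rat, 4651 probes were higher in lavage cells and 3296 lower, 2456 and 1903 at least 2-fold, and no call of a named gene was lost or turned. Leaving out each rat in turn gave 4556 to 4606 higher, 3218 to 3315 lower, and 2415 to 2477 and 1910 to 1922 at least 2-fold. Scaling mattered most. With a median shift over all probes 6943 were higher and 1492 lower (5398 and 847 at least 2-fold), and with the probes detected on all 12 arrays levelled instead 2973 and 5091 (1560 and 3362). Restricting the test to probes detected on all 12 arrays left fewer to test, with 2427 higher, and 1238 and 1242 at least 2-fold. At least 4-fold were 853 and 929. The authors' processed values gave 1069 higher and 994 lower at 2-fold, and the background inferred from all rows 1039 and 924, with the cause not tested.

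Directions turned for list medians and a few genes, the cause not tested. The median shift gave 0.71 for interferon response genes, 1.05 for leukocyte transcription factors and 0.13 for monocyte genes, and 0.36 for Napsa, 0.11 for Cldn5 and 0.60 for Itgax. The levelling of probes detected on all 12 arrays gave -0.74 for alveolar epithelial genes, -0.41 for complement, -1.22 for cytosolic ribosomal proteins, -0.15 for glycolysis and -0.60 for reference genes, -0.49 for Sftpa1 and -1.13 for Cd4. Detection on all 12 arrays, which removes members, gave -3.41 for alveolar epithelial, -0.42 for cell division, -0.50 for endothelial and stromal, 3.61 for plasma cell and -0.019 for reference genes. A detection p under 0.01 gave -0.27 for alveolar epithelial genes, and array weights -0.011 for Cd4. Without replicates 1 and 2 the complement median was -0.28, and leaving out each rat in turn gave -0.094 to 0.48. Cd4, which was not called, ran from -0.049 to 0.15 with each rat left out, but was called higher at 0.66 with the median shift (adjusted p = 0.00595, limma) and lower with the levelling and with scaling to the reference genes (adjusted p = 3.35e-06 and 0.0017, limma). Scaling to the reference genes gave -0.16 for alveolar epithelial genes, -0.64 for cytosolic ribosomal proteins, -0.023 for reference genes and -0.56 for Cd4. Calls were lost with the median shift for Cd24 and Ccr3 (adjusted p = 0.0696 and 0.065, limma), with the levelling for Ppia (adjusted p = 0.0882, limma) and with scaling to the reference genes for Sftpa1 (adjusted p = 0.697, limma). Tested against a 2-fold difference instead of 0, Napsa, Itgax, Ccr2, Cldn5 and Sftpa1 were not called (adjusted p = 0.183, 0.108, 0.109, 1 and 1, limma).

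List medians moved over the alternatives. Those of 29 of 30 lists moved by over 1.5 times or changed sign, the exception being MHC class II genes (-4.53 to -2.73). Lists that kept their sign ran from 2.87 to 5.70 for resident macrophage, 1.72 to 3.52 for lysosomal, 0.48 to 2.75 for lipid handling, 0.031 to 2.47 for scavenger receptor, 0.55 to 2.89 for chemokine and cytokine and 0.049 to 4.15 for airway epithelial genes. Those below 0 ran from -7.01 to -3.45 for red cell, -6.72 to -2.45 for platelet, -5.13 to -1.75 for cytotoxic and NK cell, -3.98 to -1.52 for T cell, -2.60 to -0.26 for B cell, -4.46 to -0.51 for neutrophil, -3.04 to -0.25 for eosinophil, basophil and mast cell and -2.80 to -0.82 for trafficking genes. Iron and antioxidant genes ran from 0.18 to 2.01, mitochondrial ribosomal proteins from 0.52 to 2.49, oxidative phosphorylation subunits from 0.044 to 1.84 and proteasome subunits from 0.30 to 2.09. Probes near the detection limit in one sample type have compressed differences, and blood, the dimmer sample type, limits what can be measured.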

Other observations

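Some bright rows were not tested because their deposited detection p-values did not follow their intensity, and they are given as values alone. G0s2, an inhibitor of fat breakdown, averaged a raw intensity of 7658 in lavage cells and 779 in blood, with a mean detection p of 0.34 in lavage cells. The dipeptidase Cndp2 averaged 3524 and 112 in lavage cells and blood, and the triglyceride enzyme Dgat2 2326 and 187. The membrane-bound chemokine Cxcl16 averaged 1012 in lavage cells and 153 in blood. In the other direction, the histone gene Hist1h2bm averaged 367 in lavage cells and 7423 in blood.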
